A study of Homo sapiens with 14 samples.

Results

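What genes did between 3 h of starvation and the later hours was measured in MiaPaCa2, a human pancreatic carcinoma cell line, on 6 of the 14 arrays of the series. The later hours were 4 arrays of cells kept in EBSS for 6 h or 9 h, 1 array for each of the siRNAs siNupr1 and siCtrl at each time, and they were set against the 2 arrays of cells kept in EBSS for 3 h, 1 for each siRNA. EBSS is a salt solution that, per the labels, holds neither glucose nor amino acids nor growth factors. siNupr1 targets NUPR1, a small stress-induced chromatin protein, and siCtrl is a scrambled sequence without a known target. Both siRNAs were transfected with INTERFERin, so the comparison holds within transfected cells only. The remaining arrays were 2 at 0 h (siNupr1 and siCtrl) and a set of 6 at 9 h (siRelA, siRelB and siCtrl in EBSS and in mock medium), which entered the model only for the estimate of spread and, at 0 h, for sorting genes by their course. The 9 h array labelled siNupr1 in its source field has sip9 in its title, where the others of that siRNA have sip8; it was used as siNupr1, and results are also given without it. The titles of the 0 h arrays name DMEM and their source field names EBSS at 0 h.

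A cell without amino acids halts general translation while the transcription factor ATF4 is still made, and ATF4 switches on genes for amino acid synthesis and import. Loss of nutrients also lowers mTORC1 activity, which lets TFEB-type factors reach the nucleus and raise autophagy and lysosome genes, and lack of growth factors keeps cells from entering S phase, where E2F targets are transcribed. Immediate early genes answer a change of medium within minutes and are usually shut off again by their own feedback.

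The labels list the siRNA named siNupr1 as follows, beside a second sequence against the same gene, and do not say which was used on these arrays.
siNupr1: ggaggacccaggacaggau
NUPR1 itself measured 5.59, 6.33, 6.28 and 6.64 at 0, 3, 6 and 9 h with siNupr1, against 6.27, 7.25, 7.49 and 7.30 with siCtrl, in log2 RMA units. Each siNupr1 array lay below the siCtrl array of its time, the one titled sip9 included. Between 3 h and the later hours NUPR1 differed by 0.14 ± 0.12 (SE; adjusted p = 0.644). Medians over all clusters lay between 5.67 and 5.78 on the 6 arrays. Of the markers for a pancreatic carcinoma line, 6 of 8 passed the filter on dim genes. The mean level over all 8 was 8.56 to 8.75 on the late arrays and 8.62 to 8.72 at 3 h. KRT18, a keratin of simple epithelia, was the marker that passed the test, 0.19 ± 0.05 higher late (adjusted p = 0.0383). The carcinoma markers that did not pass the filter were EPCAM (3.27 to 3.68 on the 8 arrays of the time course) and CDH1 (4.26 to 4.69). Markers of fibroblasts, leukocytes, endothelium and acinar cells, averaged over all measured members, had mean levels of 4.60 to 5.28 on the late arrays and 4.55 to 5.25 at 3 h. Of these, 3 of 8, 2 of 8, 1 of 7 and 1 of 4 passed the filter, among them COL1A2 at 9.77 to 10.99 and CD68 at 7.69 to 8.35.

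After 3 h the changes were modest in size and went both ways. Of 11026 genes tested, 267 rose (2.42%) and 182 fell (1.65%), together 4.07%, and among them 0 rose and 1 fell by at least 2-fold. The median rise was 0.46 and the median fall -0.47 on the log2 scale, and the largest differences were 0.965 and -1.09. Centring each array on its own median gave 287 rises and 111 falls, or 72.1% rises against 59.5% with the deposited scaling. Each of the 4 late arrays was set against the 3 h array of its own siRNA: 265 of the 267 rising genes (99.3%) and 180 of the 182 falling genes (98.9%) had 4 differences of the same sign. The genes were called on the mean of these 4 differences, so that agreement is largely set by the selection. The late and 3 h levels did not overlap for 217 of the rising (81.3%) and 144 of the falling genes (79.1%), and for 17.3% of all genes tested. At 6 h alone 11 genes were higher and 21 lower than at 3 h (0.29% of genes), and at 9 h alone 516 were higher (4.68%) and 293 lower (2.66%), together 7.34%.

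These calls rest on the pair of arrays at 3 h. With the siCtrl 3 h array left out 6 genes were called, and with the siNupr1 3 h array left out 38, of which 6 and 37 were among the 449 called with all arrays. All 449 kept their direction in both fits. POLA2, ID3 and GFPT1 kept their call in each of 19 alternatives, with a largest adjusted p of 0.0424. Every combination of siRNA and time is 1 array, and separate cultures are not stated. The spread behind the p-values is what a model adding siRNA and time leaves over. It holds noise and any dependence of the time course on siRNA. From the set of 6 arrays at 9 h it also takes any dependence of the EBSS difference on siRNA. A spread between repeated cultures was not measured. Rising genes spanned more of the genome: their median span was 53.6 kb, against 25.0 kb for falling genes and 24.2 kb for genes not called. Removing the trend with span left 209 rises and 199 falls. With that trend removed 78 of 83 genes that kept changing, 35 of 44 that turned back and 162 of 211 that started late, the courses described next, kept their call, and of 100 named genes 93 stayed on their side of the threshold.

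Genes fell into courses by what they had done at 3 h against 0 h. The late difference and the 3 h difference share the 3 h arrays with opposite signs, so the number of genes that turn back is not read as a result, and the level against 0 h is given beside it. Of the called genes, 83 kept changing in the direction of the first 3 h (36 upward, 47 downward). Their median difference from 0 h at the late hours was 1.05 and -1.19. A further 44 turned back, 28 that had fallen by 3 h and 16 that had risen by then. The first had a median late difference of 0.48 and stood -0.05 from 0 h, while the second had -0.49 and stood 0.36 above 0 h, with 8 of 16 still called above it. Over all genes, 10.4% were called higher and 18.4% lower in the late arrays than at 0 h, together 28.8%. Another 212 started after 3 h, 139 upward and 73 downward, with a 3 h difference that was not called and under 0.2. The other 110 had a 3 h difference that was not called but not that small. By contrast, 1234 genes changed by 3 h and were not called afterwards. Without the siCtrl 3 h array 2 of the 83 genes that kept changing, 0 of the 44 that turned back and 2 of the 212 that started late kept their call, and without the siNupr1 3 h array 7, 10 and 15 did.

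**Figure D1:**
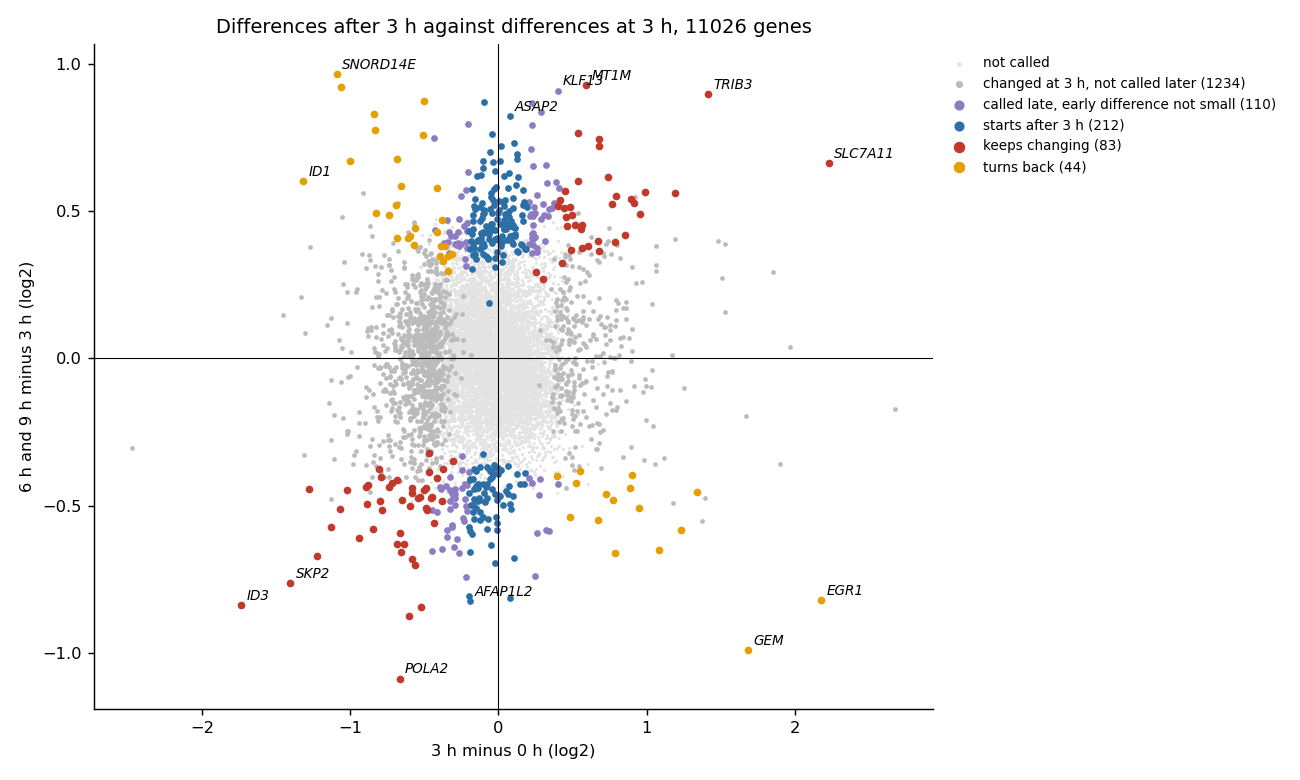
Difference of the 6 h and 9 h arrays from 3 h (vertical axis) against the difference of 3 h from 0 h (horizontal axis), both on the log2 scale from the model, 1 point for each of 11026 genes, coloured by course. TRIB3 and SLC7A11 lie far up on the right, ID3 and SKP2 far down on the left, GEM and EGR1 on the lower right, and the genes that start late sit in a column around 0.

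Some genes of amino acid supply went on rising. Of 27 tested members of the ATF4 and amino acid response list, 6 rose after 3 h (22.2%, against 2.42% of all genes) and 0 fell. Their median difference was 0.25 against -0.01 over all genes. By 3 h 20 of the 27 had risen already (3.27% of all genes had). TRIB3, a pseudokinase that feeds back on ATF4, measured 7.40, 8.93, 9.29 and 9.86 at 0, 3, 6 and 9 h with siNupr1 and 7.29, 8.60, 9.22 and 10.28 with siCtrl. All 4 late levels lay above both 3 h levels, with a late difference of 0.90 ± 0.14 (adjusted p = 0.0021). DDIT4, an inhibitor of mTORC1, rose by 0.56 ± 0.16 (adjusted p = 0.0497), VEGFA, a secreted angiogenic factor, by 0.49 ± 0.13 (0.0376) and VLDLR, a lipoprotein receptor, by 0.45 ± 0.12 (0.0317). ASNS, asparagine synthetase, measured 10.94 and 11.32 at 6 and 9 h with siNupr1 and 11.05 and 11.46 with siCtrl, against 10.81 and 10.82 at 3 h. It rose by 0.38 ± 0.09 (adjusted p = 0.0204), and its promoter window (RefSeq, GRCh38.p14, chr7:97872359-97872658, minus strand, 250 bases before to 50 after the start) is shown because it holds the C/EBP-ATF response element, TGATGNAA, in capitals at -68.
ASNS: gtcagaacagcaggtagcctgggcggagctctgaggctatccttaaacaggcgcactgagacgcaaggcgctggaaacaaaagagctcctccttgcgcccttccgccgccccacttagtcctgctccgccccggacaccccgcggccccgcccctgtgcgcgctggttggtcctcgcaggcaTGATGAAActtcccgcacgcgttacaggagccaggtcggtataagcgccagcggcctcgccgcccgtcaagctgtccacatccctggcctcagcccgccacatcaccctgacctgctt
Searched on both strands, TGATGNAA was in the windows of 3 of 22 list members (13.6%) and of 1 of the 5 called members that have a window, against 1.53% of the 8847 tested genes with a window and 3.67% of all 27305 windows. Such a match describes the letters only. Without the siCtrl 3 h array 0 of the 6 genes kept their call, without the siNupr1 3 h array 1, without either 6 h array 1 each, without the siCtrl 9 h array 3, and without the siNupr1 9 h array 6. Quantile normalization called 4 of 27.

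Of the amino acid transporters, 6 of 14 tested members rose (42.9%, against 2.42% of all genes) and 0 fell, with a median of 0.35. SLC6A9, a glycine carrier, measured 7.43, 7.99, 8.40 and 8.68 with siNupr1 and 7.47, 8.28, 8.95 and 9.38 with siCtrl over the 4 times, and rose by 0.72 ± 0.13 after 3 h (adjusted p = 0.00326). SLC7A11, the cystine importer, had risen by 2.23 in the first 3 h and gained 0.66 ± 0.15 more (adjusted p = 0.0153). Its gain came late: it measured 8.76 and 9.79 at 6 and 9 h with siNupr1 and 8.80 and 9.77 with siCtrl, against 8.31 and 8.93 at 3 h, so that the 6 h levels overlapped with those at 3 h, and it gained 0.44 (adjusted p = 0.435) without the siNupr1 3 h array. SLC43A1, a carrier of large neutral amino acids, rose by 0.55 ± 0.11 (0.00875) and SLC38A1, a glutamine carrier, by 0.54 ± 0.09 (0.0021). The other called members were SLC1A4 and SLC36A4, 0.53 ± 0.14 and 0.39 ± 0.10. SLC36A4 had differed by -0.29 at 3 h from 0 h, not called. TGATGNAA was in 3 of 13 transporter windows (23.1%), SLC38A1 among them. GOT1, the cytosolic aspartate aminotransferase, belongs to no list here and measured 10.14 and 10.87 at 6 and 9 h with siNupr1 and 10.20 and 11.10 with siCtrl, against 9.86 and 9.80 at 3 h (0.75 ± 0.13, adjusted p = 0.00312). Of the cytosolic aminoacyl-tRNA synthetases, which load amino acids on tRNA, TARS1 alone of 19 was called, 0.36 ± 0.09 higher (0.0317). Without either 3 h array 0 of the 6 transporter calls were kept, and without the siNupr1 9 h array 6 were; without the siNupr1 6 h array 3 were kept and without the siCtrl 6 h or siCtrl 9 h array 4 each.

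**Figure D2:**
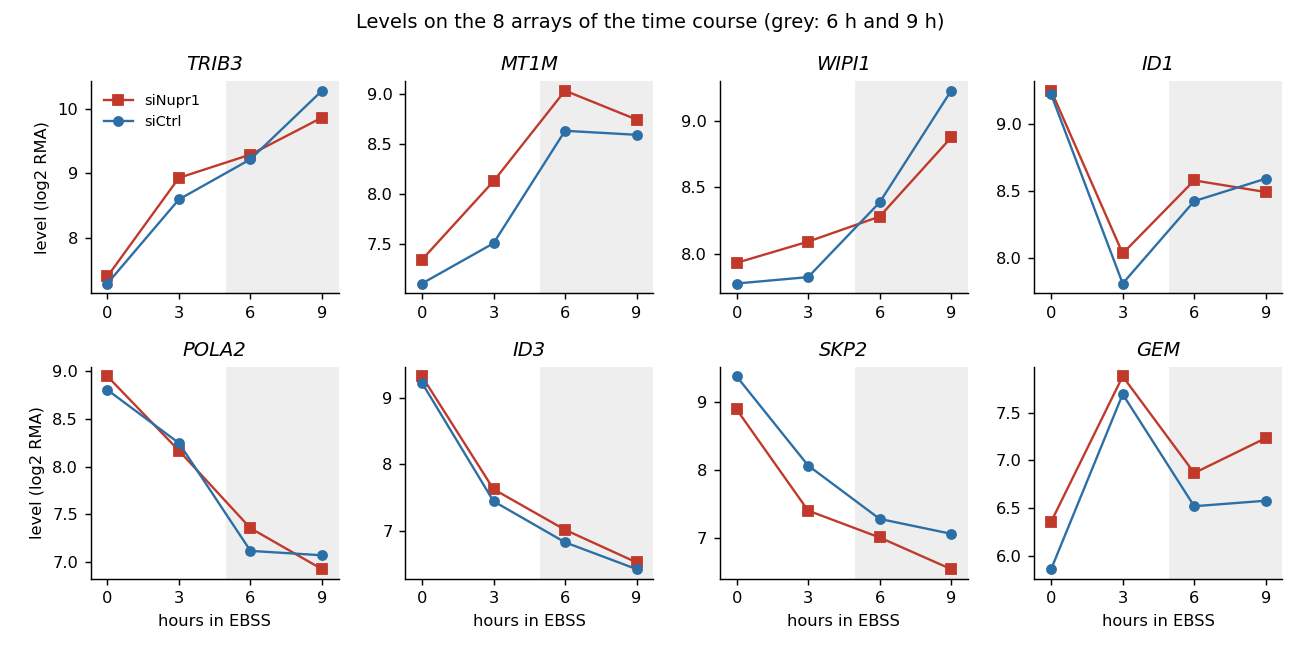
Levels (log2 RMA, vertical axes) of 8 genes on the 8 arrays of the time course against hours in EBSS, with siNupr1 as red squares and siCtrl as blue circles, 1 array a point, and the late hours shaded. TRIB3 climbs throughout and MT1M up to 6 h, WIPI1 climbs from 3 h on, POLA2, ID3 and SKP2 fall throughout, ID1 recovers in part after its dip at 3 h, and GEM comes down from its peak at 3 h.

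Of 36 tested autophagy genes 6 rose and 1 fell late (16.7% and 2.78%), against 2.42% and 1.65% of all genes. As many had risen and fallen by 3 h, when 3.27% of all genes had risen and 9.07% had fallen. Of the late rises, 4 belonged to the course that starts after 3 h. The median late difference was 0.12, with 31 of 36 above 0. WIPI1, which binds the lipid of forming autophagosomes, measured 7.93, 8.09, 8.28 and 8.87 with siNupr1 and 7.78, 7.83, 8.39 and 9.22 with siCtrl. Its first 3 h gave 0.10 and the later hours 0.73 ± 0.12 (adjusted p = 0.0021), and it went on from 6 to 9 h by 0.72 (adjusted p = 0.0174). MAP1LC3B, the LC3 protein of the autophagosome membrane, had risen by 0.89 at 3 h and gained 0.54 ± 0.13 (0.0266). BNIP3L, a mitophagy receptor, differed by -0.11 at 3 h and rose by 0.48 ± 0.10 afterwards (0.00836). OPTN and SQSTM1, adaptors that carry ubiquitin-tagged cargo, rose by 0.47 ± 0.12 and 0.37 ± 0.08, and PIK3C3, the lipid kinase of autophagosome formation, by 0.43 ± 0.10. ATG4A, a protease that trims LC3-type proteins, fell by 0.51 (adjusted p = 0.0452) with overlapping groups. Of these 7 calls 0 were kept without the siCtrl 3 h array, 1 without the siNupr1 3 h array, 1 without the siCtrl 6 h array, 5 without the siNupr1 6 h array, 4 without the siCtrl 9 h array and 6 without the siNupr1 9 h array.

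Of 37 lysosome genes and TFEB targets, 4 rose (10.8%, against 2.42% of all genes) and 0 fell, with a median of 0.08. RRAGC, a Rag GTPase that brings mTORC1 to the lysosome, measured 8.43, 9.29, 9.73 and 10.01 with siNupr1 and 8.26, 9.37, 9.82 and 10.03 with siCtrl. It rose by 0.57 ± 0.10 (adjusted p = 0.00309), and all late levels lay above those at 3 h. NPC1, which exports cholesterol from lysosomes, rose by 0.44 ± 0.11 (0.0235), ATP6V1C1, a subunit of the proton pump, by 0.44 ± 0.12 (0.0397) and LAMP2, a lysosomal membrane protein, by 0.34 ± 0.10 (0.0497). The promoter window of RRAGC (GRCh38.p14, chr1:38859723-38860022, minus strand) is given as the called member that holds CACGTG, the core of the element bound by TFEB, in capitals at -112.
RRAGC: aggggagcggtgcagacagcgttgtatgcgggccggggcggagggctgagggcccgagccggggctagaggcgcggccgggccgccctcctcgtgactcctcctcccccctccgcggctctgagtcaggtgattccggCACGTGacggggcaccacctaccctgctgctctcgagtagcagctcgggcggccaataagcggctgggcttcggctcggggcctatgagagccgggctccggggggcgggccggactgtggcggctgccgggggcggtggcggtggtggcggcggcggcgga
CACGTG was in 11 of 27 list windows (40.7%), 10.6% of windows of tested genes and 7.43% of all windows. Without either 3 h array 0 of these 4 calls were kept, without either 6 h array 1 each, and without either 9 h array 2 each. Span removal and quantile normalization left 2 each.

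Of 12 tested genes of the metallothioneins, small proteins that bind zinc and copper, and of the zinc response, 4 rose after 3 h (33.3%, against 2.42% of all genes). In all 12 the difference was above 0, with 0 called falls and a median of 0.25. By 3 h 6 of the 12 had risen, against 3.27% of all genes. MT1M measured 7.35, 8.13, 9.03 and 8.74 with siNupr1 and 7.11, 7.51, 8.63 and 8.59 with siCtrl, the step between 3 h and 6 h being the clearest, and rose by 0.93 ± 0.11 (adjusted p = 0.000239). MT1X rose by 0.38 ± 0.10 (0.0351), MT1G by 0.29 ± 0.07 (0.021) and MT2A, with late levels of 12.83 to 13.02, by 0.27 ± 0.05 (0.0042). Levels at 9 h were a little under those at 6 h for MT1X, MT1G, MT2A and MT1M, and the 9 h minus 6 h difference was called for none of these 4 (adjusted p from 0.253 to 0.581). These genes are near-identical copies, and probes may share their signal. The MT1X window (GRCh38.p14, chr16:56682220-56682519, plus strand) holds 4 matches to the metal response element, TGCACNC or TGCGCNC on either strand, in capitals from -150 to -53.
MT1X: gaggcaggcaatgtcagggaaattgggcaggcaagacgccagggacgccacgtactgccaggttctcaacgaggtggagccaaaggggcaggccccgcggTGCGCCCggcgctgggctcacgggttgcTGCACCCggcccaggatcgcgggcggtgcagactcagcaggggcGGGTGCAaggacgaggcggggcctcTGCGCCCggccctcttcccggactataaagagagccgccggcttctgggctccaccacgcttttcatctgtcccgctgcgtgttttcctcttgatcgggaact
Such matches were in 5 of 8 windows of the list (62.5%) and in 39.2% of windows of tested genes, so they are common. Without the siCtrl 3 h array 0 of the 4 calls were kept and without the siNupr1 3 h array 1; without the siCtrl 6 h array 2 were kept, without the siNupr1 6 h or the siCtrl 9 h array 3 each, and with the prior variance not trended on level 1.

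Part of the DNA replication genes kept falling. Of 44 tested members 12 fell (27.3%, against 1.65% of all genes) and 0 rose, with a median of -0.28. All 12 were among the 36 that had fallen by 3 h already (9.07% of all genes had). In RNA of whole dishes, fewer cells in S phase and less of these RNAs per cell cannot be told apart. POLA2, the second subunit of DNA polymerase alpha, had the largest difference of all genes tested: it measured 8.94, 8.17, 7.36 and 6.93 with siNupr1 and 8.80, 8.25, 7.12 and 7.07 with siCtrl, a late difference of -1.09 ± 0.11 (adjusted p = 7.32e-05). ORC1, a subunit of the origin recognition complex, measured 6.50 and 6.14 at 6 and 9 h with siNupr1 and 6.40 and 6.47 with siCtrl, against 6.97 and 7.13 at 3 h (-0.67 ± 0.11, 0.0021). MCM3 and MCM2, subunits of the replicative helicase, fell by 0.63 and 0.56 and GINS2, which joins that helicase at the fork, by 0.57 (0.00966). CDC7, the kinase that starts origins and a member of no list here, fell by 0.88 (-0.88 ± 0.13, 0.0013). The late and 3 h levels of CDC7 overlapped, and all its late levels lay under 5.805, the level of the filter on dim genes. SKP2, the ubiquitin ligase subunit that degrades the CDK inhibitor p27, was the called member of 17 G1 cyclin and inhibitor genes: it measured 8.90, 7.41, 7.01 and 6.54 with siNupr1 and 9.38, 8.07, 7.28 and 7.06 with siCtrl (-0.76 ± 0.12, 0.00171). Of 23 DNA repair and checkpoint genes 3 fell (13%, against 1.65% of all genes) and 0 rose. The 3 were BRIP1, a helicase that works with BRCA1 (-0.49 ± 0.14, 0.0497), TIMELESS, of the fork protection complex (-0.48 ± 0.10, 0.015), and EXO1, an exonuclease (-0.44 ± 0.12, 0.0472). The late and 3 h levels of EXO1 overlapped, and all late levels of BRIP1 lay under the filter level. Of these 3 calls 0 were kept without the siCtrl 3 h, the siNupr1 3 h or the siCtrl 6 h array, and 1 without the siCtrl 9 h array.

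The POLA2 window (GRCh38.p14, chr11:65261712-65262011, plus strand) is shown with its E2F-type match, TTTCGCGC, in capitals at -53.
POLA2: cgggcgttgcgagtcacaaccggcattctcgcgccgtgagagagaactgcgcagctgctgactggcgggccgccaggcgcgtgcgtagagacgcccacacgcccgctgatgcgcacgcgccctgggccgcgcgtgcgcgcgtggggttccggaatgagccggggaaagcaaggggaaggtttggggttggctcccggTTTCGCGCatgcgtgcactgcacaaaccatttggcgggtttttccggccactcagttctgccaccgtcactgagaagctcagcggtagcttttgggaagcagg
TTTCGCGC or TTTGGCGC stood in 13 of 39 replication windows (33.3%) and in 4 of the 12 called members, against 2.03% of windows of tested genes. Of the 12 replication calls 1 was kept without each 3 h array, 4 without the siCtrl 6 h array and 8 without the siNupr1 9 h array.

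Genes of G2 and mitosis were counted in the same way, and the difference between the lists was not tested. Of 55 tested, 26 had fallen by 3 h, against 9.07% of all genes. After 3 h limma called 0 of the 55 in either direction (0 higher and 4 lower at an unadjusted p under 0.05, against 9.89% and 7.81% of all genes tested). With 4.07% of all genes called, 0 of 55 is near the overall share and is not read as a result. SPC24, a kinetochore subunit outside this list, was called lower after 3 h. The median of the 55 was -0.05, and 0.03 without the siCtrl 6 h array. Between 6 h and 9 h their median difference was 0.26 (-0.02 over all genes), with 0 called and 25 of 55 higher at an unadjusted p under 0.05, against 8.33% of all genes tested. Their median against 3 h was -0.06 at 6 h and 0.00 at 9 h with siNupr1, and -0.32 and 0.12 with siCtrl. TTTGAA, the letters of the CHR element, was in 34 of 49 of their windows (69.4%), against 8.87% of windows of tested genes, and CCAAT in 34 of 49 against 35.9%. Replication-dependent histones showed the same dip at 6 h in siCtrl cells (-0.32) and a 9 h minus 6 h median of 0.26. Of 40 tested, H1-3 and H2BC14 fell after 3 h (-0.42 ± 0.11 and -0.32 ± 0.08), where 1.65% of all genes fell. At 9 h 3 of the 40 were called higher than at 6 h, where 0.399% of all genes were. The genes of this family are near-identical, so a copy may carry the signal of another. Both falls were lost without either 3 h array, the siCtrl 6 h array, the siNupr1 9 h array or the trend, and H2BC14 then differed by -0.19 without the siCtrl 3 h array.

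**Figure D3:**
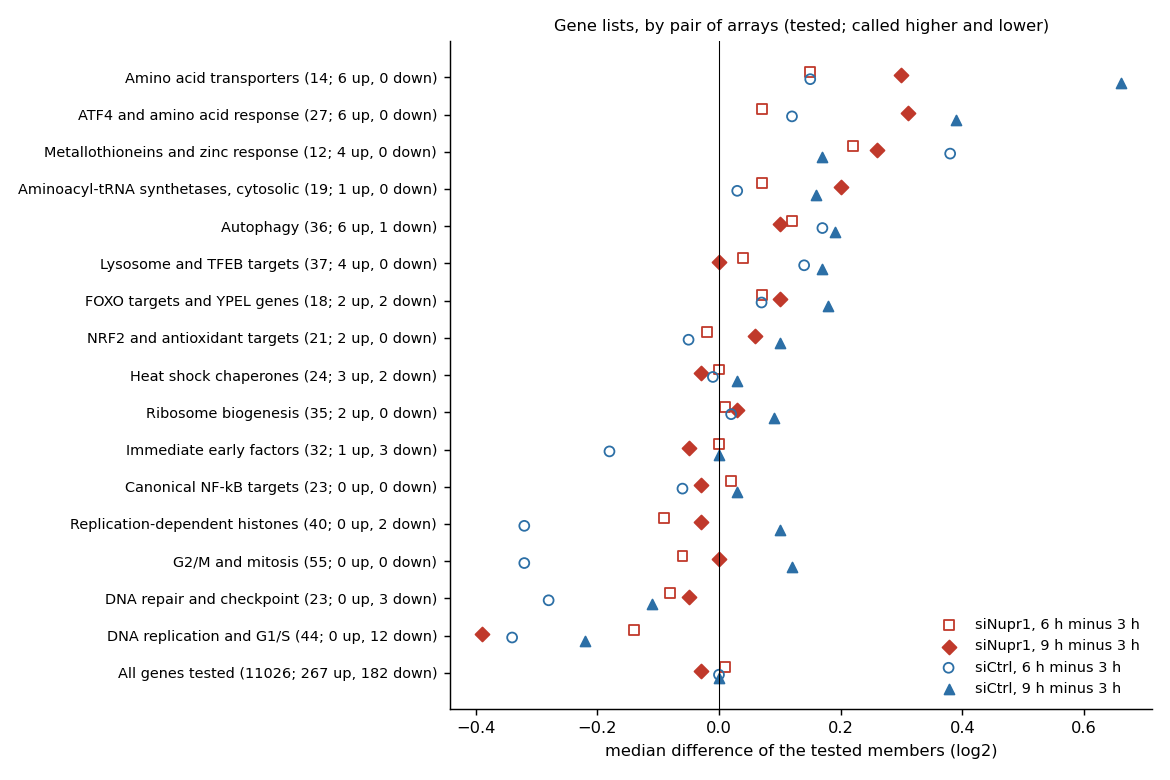
Median difference from 3 h (log2, horizontal axis) over the tested members of 16 gene lists and over all genes tested, with 1 symbol for each late array against the 3 h array of its own siRNA (siNupr1 red, siCtrl blue; 6 h open, 9 h filled). Amino acid and metallothionein lists lie to the right on all 4 pairs and replication genes to the left, while mitotic and histone genes are lowest on the siCtrl 6 h array.

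A few immediate early genes came down again. Of 32 such factors 24 had risen by 3 h, against 3.27% of all genes. After 3 h EGR1, EGR3 and CSRNP1 fell (3 of 32, 9.38%) and ID1 rose (3.12%), against 1.65% and 2.42% of all genes. EGR1, a zinc finger factor, measured 8.59, 10.19, 9.88 and 9.48 with siNupr1 and 8.65, 11.40, 10.13 and 10.42 with siCtrl, a late difference of -0.82 ± 0.17 (adjusted p = 0.0107). Its late and 3 h levels overlapped, and it still stood 1.35 above 0 h. EGR3, of the same family, fell by 0.51 (0.0356) and CSRNP1, a cysteine- and serine-rich nuclear protein, by 0.48 (0.0215). GEM, a small GTPase that restrains calcium channels, had the largest such turn: 6.36, 7.88, 6.87 and 7.24 with siNupr1 and 5.86, 7.70, 6.52 and 6.58 with siCtrl (-0.99 ± 0.13, adjusted p = 0.00041), with late levels 0.69 above 0 h and the 9 h levels alone 0.80 above it. CLK1, a kinase of splicing factors, fell by 0.66 (0.00493) and PPP1R10, a nuclear phosphatase subunit, by 0.65 (0.00344), and CLK1 stood 0.13 from 0 h (adjusted p = 0.494). CITED2 and BCL6, FOXO targets and transcriptional regulators, fell by 0.58 and 0.45, BCL6 with overlapping groups. Of the same list, YPEL5 and INSR, the insulin receptor, rose by 0.60 and 0.53. AMOTL2, a brake on YAP, fell by 0.55 (0.0359) with overlapping groups. Of the 4 immediate early calls 0 were kept without the siCtrl 3 h array, 2 without the siNupr1 3 h array and 1 without the siCtrl 6 h array; of the 4 calls in the FOXO list 0, 1 and 1 were. Without the siCtrl 3 h array EGR1 differed by -0.43, EGR3 by -0.29, CITED2 by -0.35 and AMOTL2 by -0.27 (adjusted p = 0.564, 0.704, 0.426 and 0.74), and without the siNupr1 3 h array AMOTL2 differed by -0.82.

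The inhibitors of differentiation ID1 and ID3, which block basic helix-loop-helix factors, parted ways. Both had fallen by 3 h, ID3 by 1.74 and ID1 by 1.32. ID3 measured 9.32, 7.63, 7.02 and 6.53 with siNupr1 and 9.23, 7.45, 6.83 and 6.43 with siCtrl and fell by 0.84 after 3 h (-0.84 ± 0.10, adjusted p = 0.000239). ID1 measured 9.25, 8.03, 8.58 and 8.49 with siNupr1 and 9.22, 7.81, 8.42 and 8.59 with siCtrl and rose by 0.60 ± 0.10 (0.00309). In neither gene did the late levels overlap with those at 3 h. Without the siCtrl 3 h array ID3 kept its call and ID1 did not (adjusted p = 0.244); without the siNupr1 3 h array both did.

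Small nucleolar RNA genes of the C/D box class, whose RNAs guide methylation of ribosomal RNA and are cut from introns of host genes, were taken up after members had appeared among the largest rises, so their counts are a description. Of 50 tested, 9 rose after 3 h and 0 fell, where 2.42% of all genes rose and 1.65% fell. Of these 9, 7 had been called lower at 3 h than at 0 h, a count that shares the 3 h arrays with the rise and is not read as a result. Late levels of the 7 differed from 0 h by -0.34 (SNORD52) to 0.37 (SNORD75), with a median of -0.07, and 1 was called below and 1 above 0 h. Of 36 tested H/ACA genes, the class that guides pseudouridylation, 0 were called after 3 h by limma, with 6 higher and 1 lower at an unadjusted p under 0.05 (9.89% and 7.81% of all genes). SNORD14E measured 6.80, 6.02, 6.49 and 6.78 with siNupr1 and 6.58, 5.18, 6.04 and 6.95 with siCtrl (0.965 ± 0.17, adjusted p = 0.0034). SNORD30 measured 8.07, 7.28, 7.99 and 8.18 with siNupr1 and 8.43, 7.10, 7.67 and 8.60 with siCtrl (0.92 ± 0.15, 0.0021). In both the 3 h arrays were the lowest of each siRNA and the late levels lay above them without overlap. SNORD75, SNORD78, SNORD44 and SNORD74 lie in GAS5 and rose by 0.87, 0.83, 0.58 and 0.50, SNORD12C (in ZFAS1) by 0.87, SNORD50B (in SNHG5) by 0.78 and SNORD52 (in SNHG32) by 0.67. Other C/D genes of the same hosts were not called. They were SNORD79 and SNORD81 in GAS5 (0.22 and 0.46), SNORD50A in SNHG5 (0.19), SNORD14C in HSPA8 (0.06) and SNORD28 in SNHG1, the host of SNORD30 (-0.13). At 3 h SNORD12C with either siRNA, and SNORD14E and SNORD50B with siCtrl, lay under 5.805, the level of the filter on dim genes. SNORD12C and SNORD74 had differed by -0.10 and -0.09 at 3 h and count as starting late. Of the hosts, HSPA8 (SNORD14E) and ZFAS1 had a tested cluster, with late differences of -0.002 and 0.21 (adjusted p = 0.382 for ZFAS1). A probe in a small RNA gene also reads the unspliced host transcript, so the small RNA and its precursor cannot be told apart. Without the siCtrl 3 h array 0 of the 9 calls were kept, with SNORD14E at 0.63, and without the siNupr1 3 h array 6; the other arrays, left out in turn, kept 8 or 9.

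**Figure D4:**
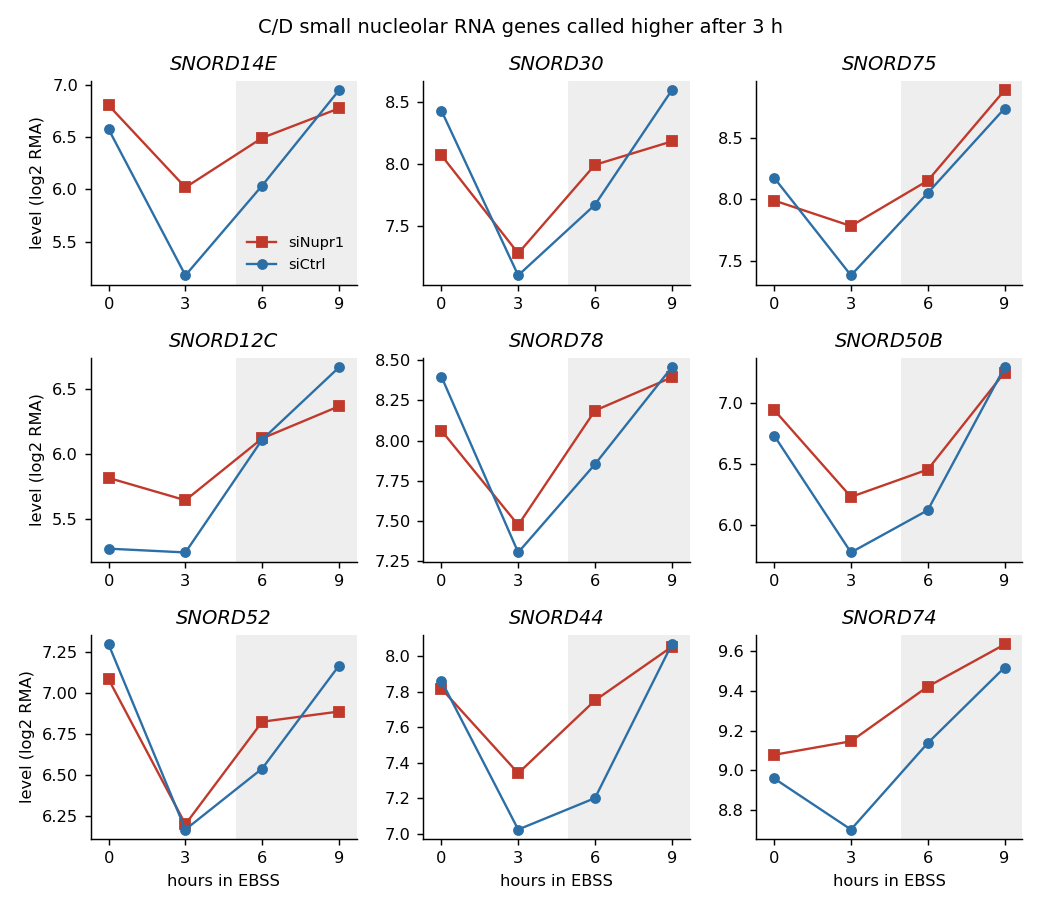
Levels (log2 RMA, vertical axes) of the 9 C/D small nucleolar RNA genes called higher after 3 h on the 8 arrays of the time course against hours in EBSS (siNupr1 red squares, siCtrl blue circles, late hours shaded). Most curves dip at 3 h and are back near the 0 h level at 9 h, and the dip is deeper in siCtrl cells in each panel except that of SNORD12C.

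Among the genes that started after 3 h, ASAP2, a GTPase-activating protein for Arf, measured 8.29, 8.16, 8.97 and 9.21 with siNupr1 and 8.48, 8.77, 9.22 and 9.75 with siCtrl (0.82 ± 0.12, adjusted p = 0.0013). NAV2, a neuron navigator protein, rose by 0.76 ± 0.13 (0.00309), CECR2, a chromatin remodelling factor, by 0.72 ± 0.13 (0.00463), MIA2, which helps load large cargo for secretion, by 0.70 ± 0.13 (0.00528), HK2, a hexokinase, by 0.45 ± 0.10 (0.0142) and TXNRD1, thioredoxin reductase, by 0.48 ± 0.12 (0.0231). Falls that started late were led by AFAP1L2, an actin filament associated adaptor, which measured 8.02, 7.75, 7.12 and 6.68 with siNupr1 and 7.41, 7.28, 6.58 and 6.39 with siCtrl (-0.82 ± 0.11, adjusted p = 0.000504). MR1, which presents vitamin metabolites to T cells, and ZNF512, a zinc finger protein, each fell by 0.81 and USP18, which removes ISG15, by 0.63. Of 24 heat shock chaperones 14 had fallen by 3 h, against 9.07% of all genes. After 3 h 3 of the 24 rose (12.5%) and 2 fell (8.33%), against 2.42% and 1.65% of all genes. DNAJB6, HSPA9 and CCT2 rose by 0.39, 0.33 and 0.30, and DNAJB4 and HSPB1 fell by 0.69 and 0.40. Of these 5 calls 0 were kept without the siCtrl 3 h array, 1 each without the siNupr1 3 h and the siCtrl 6 h array, 3 without the siNupr1 6 h array and 2 without the trend. DNAJB4 differed by -0.39 without the siCtrl 3 h array. The heat shock element (3 inverted repeats of its short core, read on either strand) was in 4 of 21 of their windows (19.0%), DNAJB6 among them, against 0.316% of windows of tested genes. KLF13, a zinc finger factor, NIBAN1, a stress protein, SGTB, a co-chaperone, and GFPT1, the first enzyme of hexosamine synthesis, had late rises of 0.91 ± 0.18, 0.87 ± 0.14, 0.84 ± 0.11 and 0.80 ± 0.10 after 3 h differences between -0.21 and 0.40 that were not called. KLF13 differed by 0.49 and 0.66 with siNupr1 and by 0.88 and 1.61 with siCtrl, and by 0.32 in all (adjusted p = 0.223) with its clusters averaged. GFPT1 measured 8.93 and 9.57 at 6 and 9 h with siNupr1 and 9.02 and 9.66 with siCtrl, against 8.45 and 8.54 at 3 h.

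Some genes still moved between the late arrays. From 6 h to 9 h 44 genes rose and 5 fell (0.399% and 0.0453% of those tested, 0.444% in all), each with the same sign in both siRNA arms. The genes were called on the mean of both arms, so that agreement is largely set by the selection. Over all 11026 genes the 9 h minus 6 h differences of the 2 arms correlated at r = 0.321. H2AC14, a histone gene, measured 6.13, 4.93 and 6.48 at 3, 6 and 9 h with siNupr1 and 5.26, 4.57 and 6.30 with siCtrl, a 9 h minus 6 h difference of 1.64 (adjusted p = 0.00489). Its 6 h levels and its siCtrl 3 h level lay under 5.805, the level of the filter on dim genes. That filter was applied to the mean over all arrays, so this rise starts from dim levels. CXCL2, a chemokine, rose by 1.13 (0.000732), SAT1, which acetylates polyamines, by 1.07 (0.000541), CD55, a shield against complement, by 1.01 (0.000541), and SLC7A11 and SNORD50B by 0.99 and 0.98. SAT1 measured 9.65, 9.53 and 10.42 at 3, 6 and 9 h with siNupr1 and 9.81, 9.55 and 10.79 with siCtrl, so that its 9 h arrays stood above both earlier times. LTBP3, a binding protein of latent TGF-beta, fell by 0.61 (0.0158), MAGED1 by 0.60 (0.0158), HOXB5, a homeobox factor, by 0.59 (0.0487), TMEM218 by 0.58 (0.0401) and HSPB1 by 0.43 (0.0199). Of the 44 rising genes 19 were below 3 h at 6 h, and 20 were also called higher in the late arrays together. The 49 calls were 4 without the siCtrl 6 h array, 11 without the siNupr1 6 h array, 15 without the siCtrl 9 h array, 12 without the siNupr1 9 h array and 27 after quantile normalization.

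Whether NUPR1 knockdown altered the later course was asked with an added term for siNupr1 at 6 h and 9 h. It called 0 of 11026 genes in limma (0%; 443 at an unadjusted p under 0.05, smallest adjusted p 0.971). The genes with the smallest p were JUN (difference of differences 0.88 ± 0.21), ARRDC3 (0.95 ± 0.24), LINC01783 (1.14 ± 0.30), GPAT2P2 (0.86 ± 0.23) and TIMM8A (0.87 ± 0.23), none of which passed. The median standard error of this term was 0.23, against 0.11 for the late difference, so 0 calls do not show that the courses were alike. JUN, an immediate early factor, measured 9.97, 9.85 and 9.99 at 3, 6 and 9 h with siNupr1 and 10.72, 9.63 and 9.95 with siCtrl. RELB, a subunit of the alternative NF-kB pathway, measured 7.54, 7.70 and 7.74 at 3, 6 and 9 h with siNupr1 and 7.98, 8.19 and 8.94 with siCtrl, a late difference of 0.39 ± 0.15 (adjusted p = 0.163). RELA and IER3, an early response gene, differed by 0.11 ± 0.12 and 0.07 ± 0.12 (adjusted p = 0.685 and 0.84), and limma called 0 of 23 canonical NF-kB targets after 3 h (3 higher and 1 lower at an unadjusted p under 0.05, against 9.89% and 7.81% of all genes).

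**Figure D5:**
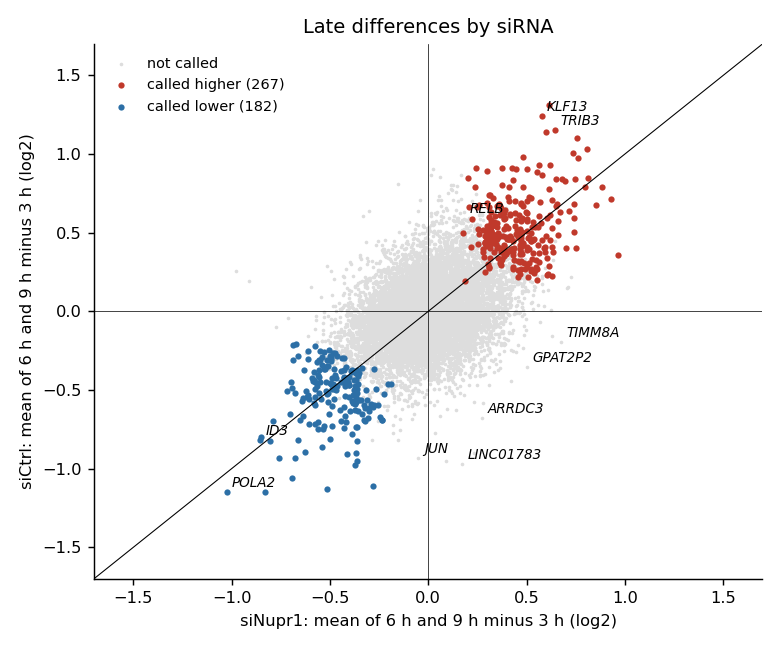
Mean difference of the 6 h and 9 h arrays from 3 h (log2) with siNupr1 (horizontal axis) and with siCtrl (vertical axis), 1 point a gene, with the called genes coloured and the diagonal drawn. The 2 axes share no array and correlate at r = 0.44 across all 11026 genes, which are not independent replicates; the called genes were chosen on the mean of both arms, and the 5 genes named for the siRNA term lie under the diagonal.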

How the data were processed

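MiaPaCa2 RNA was hybridized to 14 Affymetrix arrays after labelling by a whole-transcript protocol, per the labels' protocols. The deposited values are log2 levels that the authors made with RMA (robust multi-array average), per the submitters' processing notes, which also name limma; versions, annotation and build: not given in the sources used here. RMA normalizes by quantiles, which hides a change shared by most genes.

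Clusters with 1 gene symbol (19310 of 28869, with 0 missing values) took current symbols through their Entrez identifiers (19279 matched) and gave 18377 genes, the cluster with the highest mean standing for a gene. The dimmest 40% (mean under 5.805) were left out, and 11026 were tested with limma 3.58.1 in R 4.3.3: lmFit on 14 arrays with 9 columns (set, siRNA, condition), eBayes with trend, 5 residual and 19.6 total degrees of freedom, Benjamini-Hochberg adjusted p under 0.05. The late contrast is the mean of 6 h and 9 h minus 3 h. The siNupr1 term for late hours was fitted apart (3 residual degrees of freedom). The number of arrays limits the precision. Calls were tested on simulated data, and figures drawn with matplotlib 3.10.9.

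The comparison, the 44 gene lists and the named genes' rule were chosen with earlier results of these data known. The rule picked NUPR1, RELA, RELB and IER3, and the 10 largest rises and falls with 4 differences of 1 sign. It also picked the 6 largest of each course and direction, up to 4 called members of each list and the 6 largest changes from 6 h to 9 h. Added to these were the 5 smallest p of the siNupr1 term and, per motif, the called member with the largest difference that holds it. The text does not describe every picked gene. Among those left out are POGLUT2, TGFBR1, MIR22HG, BRINP3, MB21D2, SLX4IP, SPIRE1, CHST15, FAM234B, TUFT1, TRIM68, NUDT12 and WDR91, which the counts of named genes include. Other names were added after their values were seen, among them ASNS, OPTN, SQSTM1, PIK3C3, CCT2, MCM2, SLC1A4, SLC36A4, SNORD44, SNORD74 and SNORD52. Promoter windows are RefSeq's (GRCh38.p14), the first of each gene.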

Additional observations from a re-analysis of the deposited data

Results flagged for a closer look

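Of 114 named genes whose 4 late-minus-3 h differences were examined, 2 had 1 difference far from the other 3. For 4 independent values chance passes this cutoff about 1 time in 20. The differences of 1 siRNA share its 3 h array, so that rate need not hold here. RELB differed by 0.96 on the siCtrl 9 h array relative to siCtrl at 3 h, while its other differences lay between 0.16 and 0.21. SPC24, a kinetochore subunit, had -0.25 on the siNupr1 6 h array against -0.82 to -0.73 on the others. It was called lower after 3 h and is not a member of the G2 and mitosis list. Among 2478 tested transcript clusters to which the annotation lists no gene, which belong to no comparison above, 8 were called after 3 h, 7 higher and 1 lower (0.323%, against 1.51% of all 17321 clusters tested).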

How the results depend on the processing

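The 449 calls after 3 h (267 higher, 182 lower; 83 keep changing, 44 turn back, 212 start late; 49 from 6 h to 9 h) ranged from 6 to 586 when each array of the time course was left out in turn, with 4 to 419 higher and 2 to 254 lower, 2 to 105 keeping changing, 0 to 57 turning back, 1 to 272 starting late, 4 to 72 from 6 h to 9 h and 0 to 1 for the siNupr1 term. Leaving out the siNupr1 9 h array, whose title differs, gave 571 calls (419 higher, 152 lower), and the siCtrl 9 h array 471 (217 and 254). Without an siRNA term 5 genes were called (2 higher, 3 lower; 2, 0 and 1 in the courses; 3 from 6 h to 9 h), since the siRNA difference then enters the spread. Array weights gave 1037 (613 and 424; 197, 124 and 524; 6 from 6 h to 9 h). The 6 starved arrays alone gave 88 (55 and 33), 6 h alone 32, 9 h alone 809 and every transcript cluster 261. No filter on dim genes gave 117 falls, 54 genes that keep changing, 136 that start late and 1 call of the siNupr1 term, and more genes were then tested. The Nupr1 set alone gave 3 calls of that term. It could not be fitted without either 3 h array, so its range above covers 6 arrays left out in turn. No trend gave 175 rises and 27 calls from 6 h to 9 h, quantile normalization 27 of the latter, and centring 111 falls. The cause was not tested for the other settings. No called difference of a named gene changed sign in any setting, while RELA and IER3, not called, reached -0.002 and -0.008 without the siCtrl 9 h array. Rises outnumbered falls with all arrays and did not without the siCtrl 9 h (217 and 254), the siNupr1 6 h (104 and 109) or the siNupr1 3 h array (19 and 19), nor without an siRNA term. The median of 12 lists, at most 0.06 in size, changed sign in at least 1 setting. Of the results for single genes, 1625 stayed on their side of the threshold, 533 lost and 5 gained a call over all settings. Calls per list without the siNupr1 9 h array, without the span trend and after quantile normalization were added after seeing the data. The labels give no replicate numbers, so arrays could not be paired by culture. They were matched by siRNA only, which was a term of the model.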

Other observations

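Of 39 gene lists other than cell markers, 9 had 0 genes called by limma between 3 h and the late hours, among them 29 cytosolic ribosomal proteins (0 at an unadjusted p under 0.05 in either direction, against 17.7% of all genes, with differences from -0.13 to 0.18), 31 proteasome subunits (0 likewise, from -0.19 to 0.14), 25 ER chaperones and genes of the unfolded protein response (8 higher and 2 lower at an unadjusted p under 0.05, where all genes gave 9.89% and 7.81%) and 28 translation initiation factors and eIF2 kinases (6 higher and 1 lower). With 4.07% of all genes called, 0 calls in lists of this size are near the overall share. HSPA5, the main ER chaperone, picked after its values were seen, measured 11.23, 11.36 and 11.88 at 3, 6 and 9 h with siNupr1 and 11.18, 11.09 and 11.55 with siCtrl, and rose from 6 h to 9 h by 0.49 (adjusted p = 0.015). By 3 h 8 of the 31 proteasome genes and 7 of the 25 genes of the ER list had fallen, against 9.07% of all genes.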
